A study of Mus musculus with 33 samples.

Results

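Troponin and tropomyosin are the proteins that let calcium switch on a striated muscle. Of the genes that encode them, 10 were taken by name from the deposited tables: the slow skeletal troponins Tnni1, Tnnt1 and Tnnc1, the fast skeletal troponins Tnni2, Tnnt3 and Tnnc2, the cardiac troponin T Tnnt2, and the tropomyosins Tpm1, Tpm2 and Tpm3. All 10 were among the 27825 genes listed for the tongue and the 25965 listed for the chondrocytes. The rule that names them is their function and uses no measured value, though it was set with earlier results of these data known. The remaining family genes Tnni3, the cardiac troponin I, and Tpm4, a tropomyosin of non-muscle cells, are given where a share of a family needs them.

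In the thin filament, tropomyosin lies along actin and covers the places where myosin binds. Troponin C binds calcium, troponin I holds the filament off, and troponin T ties both to tropomyosin. Slow, fast and cardiac muscle use different genes for each subunit, and developing skeletal muscle is known to pass through a phase in which slow and cardiac forms are made before the adult fast forms dominate. Tnnc1 serves as troponin C in both slow skeletal and heart muscle. The muscle of the tongue is striated and, in the adult rodent, mainly fast.

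RNA was sequenced from whole mouse tongues at an embryonic stage (E13.5, in days), at birth (P0) and at postnatal day 20 (P20), and from costal chondrocytes of E18.5 embryos. Each tongue stage held 3 wild type libraries and 3 from mice called Zac1o knockout in the labels, which express Zac1 (listed as Plagl1) from both alleles and are called biallelic here. Zac1 is an imprinted gene for a zinc finger transcription factor and is normally read from 1 allele. The chondrocyte table held 5 wild type and 6 biallelic animals. Chondrocytes were sorted from digested ribcages for both Cd24a and Cd200 on their surface, the gate that the labels give for prehypertrophic cells, and about 2000 cells were used for each library. Tongue RNA was depleted of ribosomal RNA and made into strand-specific libraries, while chondrocyte RNA was polyadenylated RNA amplified by SMART-seq2. The labels call the libraries biological replicates and do not say whether tissue was pooled or which strain was used. RNA of E13.5 tongues was extracted with another kit than that of P0 and P20 tongues, so the kit and the step from E13.5 to P0 cannot be told apart. Levels are given as RPM, each library scaled to the same total of reads and genes of any length left uncorrected, so that long genes read higher.

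Read totals were between 36832717 and 92249098 in the tongues and between 2938462 and 15689559 in the chondrocytes. Plagl1, whose dose the model raises, was at 66.1, 105 and 91.7 RPM in the wild type and 157, 177 and 275 RPM in the biallelic tongues of E13.5. The P0 tongues had 221 to 243 RPM against 430 to 499 RPM, the P20 tongues 23.1 to 30.5 RPM against 50.9 to 77.1 RPM, and the chondrocytes 3.18 to 15.3 RPM against 17.5 to 49.99 RPM. In no table did the genotype groups overlap for it. The 8 skeletal muscle markers (among them Ckm, Ttn and Acta1) summed to 325 to 588 RPM in the E13.5 tongues and to 17828 RPM or more in every later tongue. In the chondrocyte table, 5 leukocyte markers summed to 2259 to 3358 RPM and 7 chondrocyte markers to 173 to 862 RPM, so in every animal labelled as chondrocytes the leukocyte markers were above the chondrocyte markers. The part of these cells in the chondrocyte values below was not tested. On the first principal component, E13.5 biallelic replicate 3, P0 wild type replicate 2, P0 biallelic replicate 1, P20 biallelic replicate 3 and the wild type chondrocyte animals CC7, CC8 and CC9 stood apart from the rest of their tables.

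Most of the troponin genes lie in pairs of a troponin I and a troponin T gene, and 3 such pairs are present on mouse chromosomes 1 and 7 (GRCm38). Tnni1 (chromosome 1, 135783065 to 135810989, plus strand) is followed by Tnnt2 (135836386 to 135852260, plus strand) at a distance of 25396 bases, so a slow troponin I stands beside the cardiac troponin T. Tnni2 (chromosome 7, 142441808 to 142444410, plus strand) is followed by Tnnt3 (142498836 to 142516009, plus strand) after 54425 bases, which pairs the fast forms. Tnnt1 (chromosome 7, 4504570 to 4516382, minus strand) lies 1922 bases from Tnni3 (4518305 to 4532453, minus strand), a slow and a cardiac form. Lad1 lies between Tnni1 and Tnnt2, and Lsp1 between Tnni2 and Tnnt3. The troponin C genes stand alone, Tnnc1 on chromosome 14 (31208312 to 31211729, plus strand) and Tnnc2 on chromosome 2 (164777161 to 164779967, minus strand). The tropomyosin genes are on chromosome 9 (Tpm1, 67022590 to 67049406, minus strand), chromosome 4 (Tpm2, 43514711 to 43523765, minus strand) and chromosome 3 (Tpm3, 90072649 to 90100902, plus strand).

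The stretches before the start site are shown for the slow and cardiac genes that were lower at P20 than at P0, with the fast Tnnc2 for contrast. Each is the 250 bases before a start in RefSeq (GRCm38.p6), written 5′ to 3′ on the strand of the gene: Tnni1 at chr1:135799171-135799420, Tnnt1 at chr7:4515976-4516225, Tnnc1 at chr14:31208062-31208311, Tnnt2 at chr1:135836084-135836333 and Tnnc2 at chr2:164779735-164779984. Capitals mark the E-box CAGCTG, a core bound by myogenic factors such as MyoD, the M-CAT element CATTCC on either strand (read as GGAATG on the other), known from the troponin T promoter of the heart, and TATAAA on the strand of the gene.
Tnni1: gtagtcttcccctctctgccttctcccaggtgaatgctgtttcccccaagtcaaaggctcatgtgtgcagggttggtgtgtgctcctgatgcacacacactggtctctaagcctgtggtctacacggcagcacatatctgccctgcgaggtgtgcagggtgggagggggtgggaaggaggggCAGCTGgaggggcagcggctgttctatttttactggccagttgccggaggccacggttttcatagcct
Tnnt1: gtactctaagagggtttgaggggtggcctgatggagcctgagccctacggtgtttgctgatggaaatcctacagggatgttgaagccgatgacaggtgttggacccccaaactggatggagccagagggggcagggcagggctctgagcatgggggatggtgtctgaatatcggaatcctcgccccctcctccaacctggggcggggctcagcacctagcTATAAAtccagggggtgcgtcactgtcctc
Tnnc1: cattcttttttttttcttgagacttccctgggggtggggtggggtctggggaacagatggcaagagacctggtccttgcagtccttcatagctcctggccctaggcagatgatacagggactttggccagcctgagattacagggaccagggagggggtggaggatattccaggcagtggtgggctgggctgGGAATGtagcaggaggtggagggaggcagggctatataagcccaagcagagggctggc
Tnnt2: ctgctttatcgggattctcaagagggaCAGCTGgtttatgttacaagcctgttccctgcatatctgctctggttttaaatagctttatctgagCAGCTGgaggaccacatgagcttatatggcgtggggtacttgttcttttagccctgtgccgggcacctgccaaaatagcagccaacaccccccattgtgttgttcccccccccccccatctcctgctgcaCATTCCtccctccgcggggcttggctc
Tnnc2: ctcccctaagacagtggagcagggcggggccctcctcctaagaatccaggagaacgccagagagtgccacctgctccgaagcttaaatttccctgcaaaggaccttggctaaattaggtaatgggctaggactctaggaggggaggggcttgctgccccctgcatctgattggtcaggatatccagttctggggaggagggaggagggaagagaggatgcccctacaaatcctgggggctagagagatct

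RefSeq windows of 300 bases (250 before to 50 after the start) were found for 8 of the 10 genes, 11 windows in all, of which the Tnni1 windows overlap; Tnni2 and Tnnt3 are named only. CAGCTG was in 5 of the 11 windows, while 16.3% of 32851 promoters of that length held it. The overlapping Tnni1 windows hold the same CAGCTG site, which is counted in each of them. Tnni1 had it 68 bases before its start, and the Tnnt2 window shown held it 223 and 157 bases before the start. The M-CAT element was in 3 of 11 windows and in 14.7% of all promoters; Tnnt2 carried it 27 bases and Tnnc1 58 bases before the start. TATAAA, 30 bases before the start of Tnnt1, was in 1 of 11 windows and in 8.32% of all promoters. The looser E-box CANNTG, which includes CAGCTG, was in 11 of 11 windows and in 72.3% of all promoters. The MEF2 and CArG motifs, searched on both strands, were in 0 of 11 windows and in 3.19% and 1.63% of all promoters. None of the 3 marked motifs was in the Tnnc2 window, which says only that these letters are not there. The start sites used in these tongues were not measured, and a match is a description of the letters.

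The 3 slow troponins had the highest levels of all troponins in the wild type E13.5 tongue and fell at both later steps. Tnni1, the slow inhibitory subunit, was at 119, 155 and 94.6 RPM in the wild type at E13.5, at 26.2, 31.8 and 33.0 RPM at P0 and at 1.09, 0.824 and 0.749 RPM at P20. No library of one stage overlapped with another stage. On the log2 scale the difference was -1.995 (SE 0.41, adjusted p = 0.00028) from E13.5 to P0 and -5.11 (SE 0.41, adjusted p = 1.34e-07) from P0 to P20, by limma's moderated test with Benjamini-Hochberg adjustment over 13663 genes. The P20 level rests on 34 to 50 reads in each wild type library. In whole tongue, fewer cells of a type and less RNA per cell cannot be told apart, for this gene and all that follow.

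Tnnt1, which anchors the slow complex to tropomyosin, was at 72.5, 90.3 and 64.2 RPM at E13.5, at 16.1 to 26.4 RPM at P0 and at 3.99, 3.004 and 1.79 RPM at P20 in the wild type. It fell by 1.88 (SE 0.26, adjusted p = 4.24e-06) and then by 2.87 (adjusted p = 4.81e-07) on the log2 scale. Tnnc1, the slow and cardiac calcium sensor, was at 57.4, 65.5 and 50.7 RPM at E13.5, at 4.66, 5.45 and 6.89 RPM at P0 and at 0.0654, 0.103 and 0.132 RPM at P20, where it had only 3, 6 and 6 reads. Its log2 differences, -3.36 (SE 0.49) and -5.86 (SE 0.49), were the lowest of the 3 at both steps, and the second depends on those few reads. With 1 RPM added before the logarithm, the second step of Tnnc1 shrank to -2.59. Each of the 3 slow genes also fell at both steps in the biallelic tongues, with log2 differences of -1.20 and -5.53 for Tnni1, -1.30 and -3.08 for Tnnt1, and -2.55 and -6.35 for Tnnc1 (largest adjusted p 0.0132).

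The 3 fast troponins rose in RPM from E13.5 to P0, and none of them passed the test from P0 to P20. Relative to the mean of skeletal muscle markers the rise was seen in Tnnt3 and not in Tnni2 or Tnnc2, with the values given further on. Tnnt3, the fast tropomyosin-binding subunit, was at 12.1, 17.2 and 7.88 RPM in the wild type at E13.5, at 829.1, 941 and 706 RPM at P0 and at 1206, 999 and 778 RPM at P20. The first step was a rise of 6.12 (SE 0.33, adjusted p = 8.50e-11), or 69.5-fold, while the second was 0.26 (SE 0.33, adjusted p = 0.547) with groups that overlap. Tnni2, the fast inhibitory subunit, was at 12.4, 16.6 and 7.04 RPM, then at 234, 267 and 219 RPM, then at 471, 357 and 277 RPM. It rose by 4.40 (SE 0.44, adjusted p = 1.26e-07), and the later difference of 0.59 (SE 0.44) had an adjusted p of 0.289. Tnnc2, the fast calcium sensor, was at 21.5, 27.9 and 19.1 RPM, then at 391, 415 and 341 RPM, then at 463, 371 and 304 RPM. Its rise was 4.08 (SE 0.29, adjusted p = 1.92e-09) and the second step was -0.03 (adjusted p = 0.944). In the biallelic tongues the first step was 4.86 for Tnni2, 6.11 for Tnnt3 and 4.42 for Tnnc2. Without any 1 of the 18 libraries the first step in the wild type stayed between 5.83 and 6.39 for Tnnt3 and between -2.17 and -1.81 for Tnni1.

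The level of skeletal muscle RNA in the tongue rose over the same step, and the direction of some of these genes depends on whether that rise is subtracted. Between E13.5 and P0 the mean log2 level of the 8 skeletal muscle markers rose by 4.66 in the wild type. Relative to that mean, a scaling chosen after the data were seen, Tnnt3 was still higher at P0, by 1.46 (adjusted p = 1.28e-05). On the same scale Tnni2 was at -0.26 (adjusted p = 0.427 by limma) and Tnnc2 at -0.58 (adjusted p = 0.0487). Their rise was no larger than the mean rise of the markers, though larger than the median one. Of the 8 markers themselves 3 were called higher and 4 lower than that mean, with a median of -0.68. The slow genes were lower on both scales, with Tnni1 at -6.65, Tnnt1 at -6.54 and Tnnc1 at -8.02 relative to the markers. From P0 to P20 the markers moved by -0.19 and the median library level by 0.22, and only Tnnc2 among the 10 genes changed sign, to 0.16 relative to the markers.

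Tnnt2, the troponin T of the heart, followed neither course. It was at 26.4, 31.0 and 18.7 RPM in the wild type at E13.5, at 28.1, 40.8 and 40.0 RPM at P0 and at 3.79, 3.31 and 7.10 RPM at P20. Levels at E13.5 and P0 overlapped, with a difference of 0.53 (SE 0.30, adjusted p = 0.116) that passed the threshold with voom on the whole reads and after centring each library on its median, and was -4.13 relative to the muscle markers. From P0 to P20 it fell by 3.001 (adjusted p = 1.33e-06). In the biallelic tongues the first step was 1.59 (adjusted p = 0.000134) and the second -3.51. Heart markers were low beside it: 8 heart markers, Tnni3 among them, summed to 4.22 to 9.51 RPM in the E13.5 and P0 tongues, Nppa had at most 3 reads in any tongue library, and Tnni3 did not exceed 1.26 RPM.

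Tpm1 and Tpm2 rose to P0 in RPM, though not relative to skeletal muscle markers, and Tpm3 fell. Tpm1, found in fast and cardiac muscle and in smooth muscle as other splice forms, was at 244, 196 and 208 RPM in the wild type at E13.5, at 699, 809 and 640 RPM at P0 and at 670, 520 and 434 RPM at P20. Its rise was 1.73 (SE 0.18, adjusted p = 2.31e-07), and the later value of -0.42 had an adjusted p of 0.0705, which passed the threshold after median centring and without P20 wild type replicate 1 (-0.64 and -0.58). Tpm2, the beta form, was at 137, 152 and 101 RPM, then at 606, 666 and 572 RPM, then at 532, 452 and 424 RPM, a rise of 2.26 (SE 0.23, adjusted p = 1.56e-07) and a second step of -0.39 (adjusted p = 0.176). Relative to the muscle markers Tpm1 was at -2.93 and Tpm2 at -2.40 from E13.5 to P0. Tpm3, which makes the slow muscle form and several forms of non-muscle cells, was at 36.0, 29.8 and 32.4 RPM, then at 16.6, 15.4 and 17.7 RPM, then at 20.3, 22.6 and 23.2 RPM. It fell by 0.98 (SE 0.13, adjusted p = 3.70e-06) and then rose by 0.41 (SE 0.13, adjusted p = 0.0171). The last call was lost after either centring and without P0 wild type replicate 2, P20 wild type replicate 2 or P20 wild type replicate 3, with adjusted p values from 0.00542 to 0.242 over all alternatives. The tables sum all splice forms of a gene, and a near-identical copy, Tpm3-rs7, was at 0.553 to 0.972 RPM in the wild type at E13.5, so Tpm3 levels are uncertain to the extent that reads were split between them.

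From E13.5 to P0 in the wild type, 5 of the 10 genes were called higher and 4 lower; of all tested genes 37.9% were called higher and 39.9% lower. In the biallelic tongues 6 were called higher and 4 lower, against 39.7% and 37.6% of all genes. From P0 to P20, 1 was called higher and 4 lower in the wild type, where 31.7% and 14.9% of all genes were called. The biallelic tongues had 1 higher and 4 lower, against 29.9% and 17.3%. The median of all tested genes was -0.04 from E13.5 to P0 and 0.22 from P0 to P20 in the wild type. For these 10 genes it was 1.13 and -0.41. Relative to the muscle markers the step from E13.5 to P0 in the wild type had 1 of the 10 called higher, Tnnt3, and 8 lower, all the others but Tnni2, with a median of -3.53. On that scale 2.2% of all genes were called higher and 93.4% lower, with a median of -4.70.

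**Figure D1:**
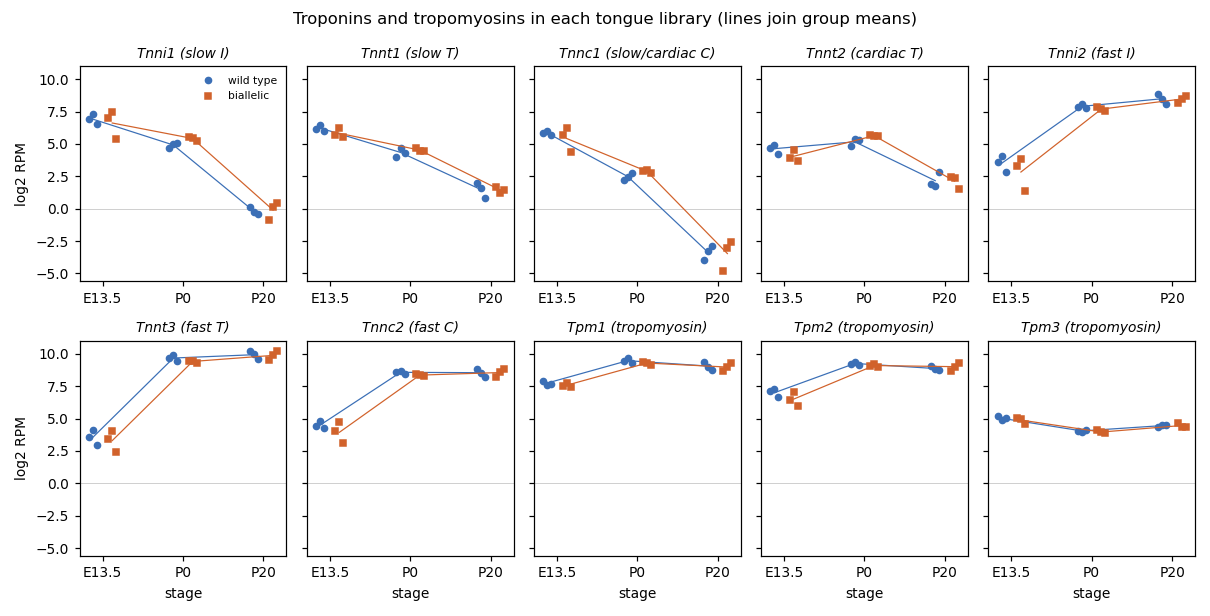
Level of each of the 10 genes in every tongue library (vertical axis, log2 RPM) by stage, with points for libraries and lines through group means for wild type and biallelic. The slow troponins Tnni1, Tnnt1 and Tnnc1 fall at both steps. The fast troponins climb to P0 (Tnni2 and Tnnc2 not relative to the mean of skeletal muscle markers), and Tnnt2 drops after P0.

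**Figure D2:**
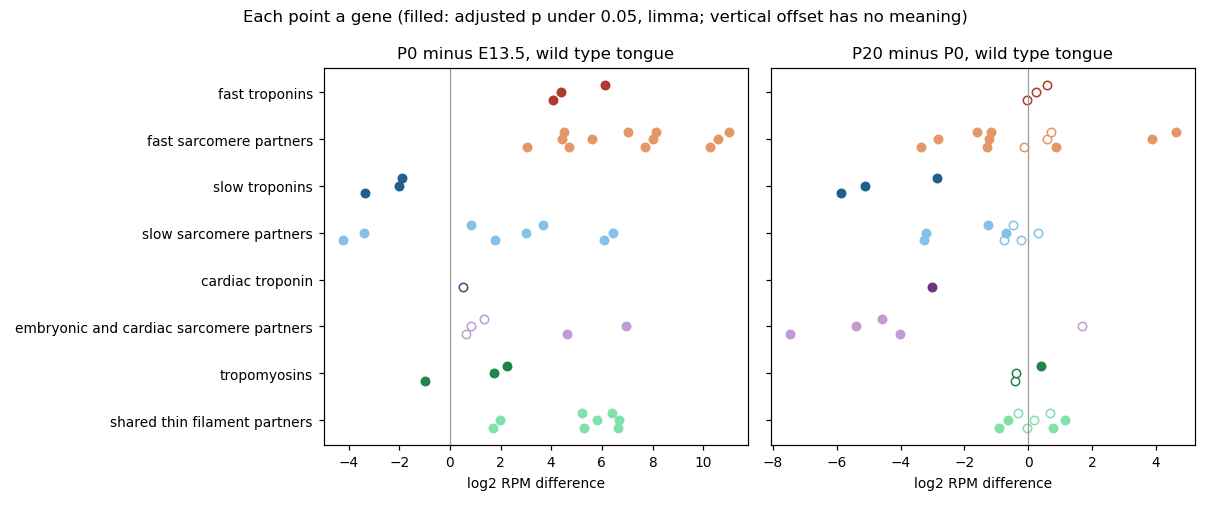
Log2 RPM differences between stages in the wild type tongue, P0 minus E13.5 on the left and P20 minus P0 on the right, with 1 point for each gene, a row for the troponins or tropomyosins of each type above a row for their sarcomere partners, and filled points for genes called by limma. From E13.5 to P0 the slow troponins lie below 0 while 6 of 8 slow partners lie above it (2 of 8 relative to skeletal muscle markers), and from P0 to P20 the fast troponins lie between -0.03 and 0.59; Tnni2, Tnnt2, Tnnc2, Tpm1 and Tpm2 turn negative in the left panel on that reference too.

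The exchange of subunits is clearest within a library, as the ratio of one form to its counterpart, which no scaling of the library can move. The log2 ratio of Tnni1 to Tnni2 was 3.41 ± 0.29 (SD, n = 3) at E13.5 in the wild type, -2.99 ± 0.22 at P0 and -8.68 ± 0.13 at P20. In RPM, with gene length uncorrected, a ratio of 10.6 to 1 in favour of the slow form became 411 to 1 in favour of the fast form. Tnnt1 over Tnnt3 went from 2.67 ± 0.33 through -5.34 ± 0.30 to -8.46 ± 0.27. Tnnc1 over Tnnc2 went from 1.35 ± 0.11 through -6.09 ± 0.41 to -11.92 ± 0.82, the last resting on 3, 6 and 6 Tnnc1 reads. Tnnt2 over Tnnt3 went from 1.07 ± 0.20 through -4.52 ± 0.37 to -7.78 ± 0.87. For each of the 4 ratios, no library of one stage overlapped with the next stage, in either genotype. The ratio of the troponin T forms moved most before birth, by -8.00 from E13.5 to P0 and by -3.13 from P0 to P20, whereas the troponin I ratio moved by -6.40 and -5.70.

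**Figure D3:**
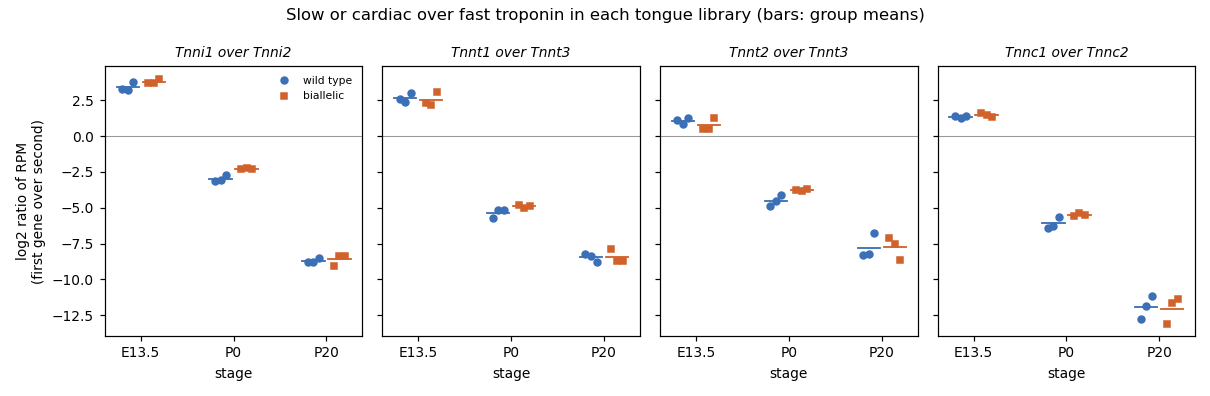
Log2 ratio of the slow or cardiac form to the fast form within each tongue library, by stage and genotype, with points for libraries and bars for group means. All 4 ratios are above 0 at E13.5 and below 0 at P0 and P20, and at P0 the biallelic libraries lie above the wild type ones in each.

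Divided by exon length, levels can be compared between genes. Tnni1 made up 85.6% to 89.0% of the troponin I reads per kilobase in the E13.5 wild type tongues, 7.12% to 9.31% at P0 and 0.157% to 0.185% at P20. Tnnc1 made up 69.5% to 72.2% of troponin C, then 1.14% to 1.92%, then 0.0137% to 0.0422%. Tnnt3 made up 8.33% to 11.98% of troponin T in the E13.5 tongues, then 92.4% to 95.03%, then 98.9% to 99.4%. Within the tropomyosins, Tpm2 held 27.4% to 39.6% in the E13.5 libraries, 59.4% to 59.5% in those of P0 and 57.2% to 60.0% in those of P20. Tpm4, of non-muscle cells, held 29.4% to 38.1%, then 3.49% to 6.10%, then 5.32% to 7.07%, so the larger Tpm2 share goes with a smaller Tpm4 share. Tpm1 held 25.4% to 28.8%, then 33.1% to 36.0%, then 30.6% to 35.9%. Tpm3 held 5.55% to 6.32%, then 0.986% to 1.32%, then 1.57% to 2.35%. The shift in makeup was smaller than in any of the 3 troponin families.

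In the order of levels per kilobase in the wild type, Tnni1 led at E13.5 with 96.4 ± 23.7 RPM per kilobase (SD, n = 3), followed by Tnnc1 at 80.2 ± 10.3 and Tnnt1 at 70.2 ± 12.4, with ranges that overlap between neighbours. Tnnt3, at 10.6 ± 3.99, was then near the end of the order and overlapped with Tpm3. At P0 Tnnt3 led with 708 ± 101, ahead of Tnnc2 at 546 ± 54.1 with no overlap, and Tnni2 at 276 ± 28.3 overlapped with Tpm2 at 258 ± 19.98. At P20 Tnnt3 was at 853 ± 184, and Tnnc1, at 0.139 ± 0.0465, was last, below Tnni3.

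The neighbours within the gene pairs did not share the course of the troponins. Lad1, a basement membrane protein gene between Tnni1 and Tnnt2, was at 9.58 to 21.7 RPM in the wild type at E13.5, at 25.1 to 26.1 RPM at P0 and at 46.0 to 67.5 RPM at P20, so it was highest where both of its flanking troponins were lowest. Lsp1, a leukocyte actin-binding protein gene between Tnni2 and Tnnt3, was at 9.58 to 12.7 RPM, 8.65 to 12.1 RPM and 27.1 to 33.3 RPM.

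Partners of the troponins in the sarcomere were read from lists chosen with earlier results of these data known. From E13.5 to P0 in the wild type, 37.9% of all genes were called higher and 39.9% lower. Of the genes specific to fast muscle 12 of 12 were called higher, with a median of 7.37 beside -0.04 over all genes. Of these, the calcium pump gene Atp2a1 differed by 5.597 and the calcium store gene Casq1 by 8.03. Of the slow partners 6 of 8 tested were called higher in RPM and 2 lower (median 2.39), with Mybpc1, slow myosin-binding protein C, at 6.42 and the stretch-responsive Ankrd2 at 6.09. Among thin filament genes used by all striated muscle, 8 of 8 were called higher (median 5.55), including nebulin (Neb, 5.80) and the filament-capping Tmod1 (5.31). Myogenic and fibre type regulators had 17 of 22 called higher and 3 lower, with Tbx15, a factor of fast glycolytic fibres, at 3.78 and Mef2a at 2.37. Of embryonic and cardiac partners 2 of 5 were called, both higher: Myh8, the perinatal myosin (6.97), and Ankrd1 (4.63). Relative to the muscle markers the counts turned for 3 of these lists: the slow partners had 2 called higher and 6 lower (median -2.26), the regulators 1 and 20 of 22 (median -2.69), and the embryonic and cardiac partners 1 and 3 of 5 (median -3.32). The fast partners then had 8 called higher and 1 lower (median 2.71), and the thin filament genes 5 and 2 (median 0.89). Of all genes 2.2% were called higher and 93.4% lower on that scale. Their median was -4.70, and the medians of all these lists were above it.

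From P0 to P20, where 31.7% of all genes were called higher and 14.9% lower, the slow partners had 4 of 8 called lower and none higher, with Casq2, the slow and cardiac calcium store, at -3.19 and Myh7, the slow and cardiac myosin, at -3.27. Embryonic and cardiac partners had 4 of 5 called lower, with Myh8 at -7.47 and the embryonic light chain Myl4 at -4.58. The fast partners were divided, 3 called higher and 6 lower of 12, the higher ones led by the adult fast myosins Myh1 (4.63) and Myh4 (3.88). The fast troponins, at -0.03 to 0.59 over this step, were not called.

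Genes whose pattern over the 18 tongue libraries was most like that of the mean of the slow troponins were Upk1b, Magel2, Igf2bp1, Rxfp1 and Myog, with Pearson correlations of 0.987 to 0.988. Because 148 genes exceeded 0.95, this likeness mostly repeats the stage order. The genes most like the mean of the fast troponins were Cacna1s, Myom1, Popdc3, Dmpk and Pygm (0.993 to 0.995), among 979 genes above 0.95. After the mean of each of the 6 groups was removed, so that only differences between libraries of 1 group remained, the slow troponins were most like Myom2 (0.917), A930003A15Rik (0.913), Srl (0.890), Myoz2 (0.886) and Casq2 (0.880). The fast troponins were then most like Mylpf (0.984), Myoz2 (0.981), Dhrs7c (0.980), Kbtbd5 (0.972) and Srl (0.961). Tnni1 and Tnni2 themselves had a correlation of -0.70 over the 18 libraries and of 0.92 in these deviations; in the deviations it was 0.64 for Tnnt1 with Tnnt3 and 0.61 for Tnnc1 with Tnnc2. Genes read in 1 library share its depth and the muscle content of its tissue, whose part in these correlations was not tested. E13.5 biallelic replicate 3 deviated from its group mean by -1.25 for Tnni1 and -1.47 for Tnni2. The correlations were not computed without that library and are descriptions.

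At P0 the mean levels of the 3 slow troponins and of Tnnt2 in the biallelic tongues were above the wild type, and those of the fast troponins below it, by amounts that did not pass the test over all genes. Tnni1 was at 47.4, 43.5 and 38.0 RPM in the 3 biallelic tongues, with 26.2, 31.8 and 33.0 RPM in those of the wild type, and with no overlap between the groups. Tnnt2 was at 52.5, 49.1 and 47.8 RPM against 28.1, 40.8 and 40.0 RPM, again with no overlap. Tnnc1 was at 7.53, 7.84 and 6.71 RPM against 4.66, 5.45 and 6.89 RPM, and Tnnt1 at 25.7, 21.8 and 21.5 RPM against 16.1 to 26.4 RPM, both with overlap. The log2 differences, biallelic minus wild type, were 0.50 for Tnni1 (95% interval 0.20 to 0.80), 0.48 for Tnnt2 (0.12 to 0.83), 0.39 for Tnnc1 (0.01 to 0.78) and 0.18 for Tnnt1 (-0.25 to 0.60). Without any 1 library, wild type replicate 2 and biallelic replicate 1 included, Tnni1 stayed between 0.40 and 0.59, Tnnt2 between 0.30 and 0.57 and Tnnc1 between 0.26 and 0.54. Tnnt1 lay between 0.010 and 0.36, the lowest without wild type replicate 1 and the highest without wild type replicate 2.

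The fast forms lay on the other side of 0 at P0. Tnnt3 was at 713, 708 and 629 RPM in the biallelic tongues against 829.1, 941 and 706 RPM, a difference of -0.27 (95% interval -0.56 to 0.03). Tnni2 differed by -0.22 and Tnnc2 by -0.21. Of the tropomyosins, Tpm1 was at -0.18, Tpm2 at -0.16 and Tpm3 at -0.08, the last turning to 0.01 relative to the muscle markers. None of the 10 genes was called at P0 by limma, with an adjusted p of 0.9998 for each (0.598 to 0.99998 over the alternatives), and 0.016% of all tested genes were. At an unadjusted p under 0.05 there were 3 of 10 (Tnni1, Tnnt2 and Tnnc1), beside 3.3% of all genes, and voom called 0. Groups did not overlap for 2 of 10 genes, beside 8.9% of all genes. With 3 libraries against 3, an exact two-sided permutation test of 1 gene cannot give a p below 0.1.

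Within each library at P0 the slow forms made up more of their pairs in the biallelic tongues. The log2 ratio of Tnni1 to Tnni2 was -2.29, -2.22 and -2.30 in the biallelic and -3.16, -3.07 and -2.73 in the wild type libraries, a difference of 0.72 with no overlap. The difference was 0.44 for Tnnt1 over Tnnt3, 0.74 for Tnnt2 over Tnnt3 and 0.61 for Tnnc1 over Tnnc2, and in none of the 4 did the groups overlap. The ratios are not independent, since Tnnt3 is in 2 of them and all come from the same 6 libraries. Taken singly, 8.9% of all genes had groups without overlap at P0, and no such share was computed for ratios of other genes. Without any 1 library the differences stayed between 0.63 and 0.85, 0.27 and 0.53, 0.56 and 0.93, and 0.46 and 0.84, in that order. As a share per kilobase, Tnni1 was 12.2% to 12.8% of troponin I in the biallelic tongues against 7.12% to 9.31%, and Tnnc1 was 2.03% to 2.26% of troponin C against 1.14% to 1.92%. At E13.5 and at P20 the groups overlapped for each of the 4 ratios.

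Skeletal muscle markers are given beside these ratios. The 8 genes summed to 22849 to 28171 RPM in the wild type and 23123 to 24658 RPM in the biallelic tongues at P0. Fast partners were lower in the biallelic tongues for 12 of 12 genes with a median of -0.50, against 0.04 for all genes, but 0 were called; the adult fast myosins Myh1 and Myh4 were at -1.91 and -0.97. Slow partners were mixed, 2 higher and 4 lower. Of the thin filament genes 7 of 8 were lower, with Tmod4 at -0.47 and Lmod3 at -0.31, and 0 were called.

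**Figure D4:**
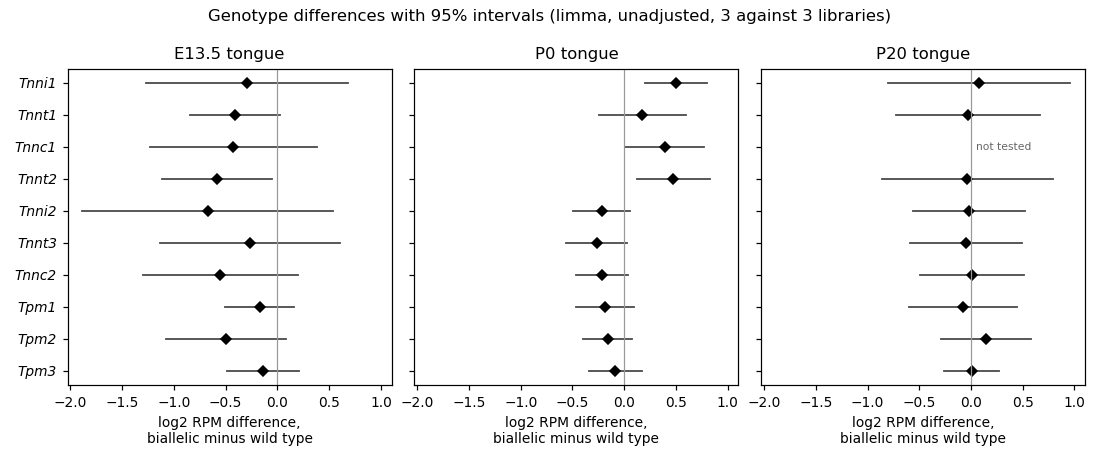
Log2 difference between biallelic and wild type, with unadjusted 95% intervals from limma, for each gene in the tongue at E13.5, P0 and P20, where Tnnc1 was not tested at P20. At P0 Tnni1, Tnnt2, Tnnc1 and Tnnt1 lie above 0 and the fast troponins and tropomyosins below (Tpm3 at 0.01 relative to skeletal muscle markers), and none of the differences passes the test over all genes.

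At E13.5 all 10 genes were lower in the biallelic group, by -0.14 (Tpm3) to -0.67 (Tnni2), with a median of -0.42 beside -0.06 over all genes. This rests on 1 library. Tnni1 was at 128, 179 and 41.3 RPM in the biallelic tongues and Tnni2 at 9.98, 14.01 and 2.56 RPM, the last value in each case being replicate 3, which was the lowest of the 6 libraries for 10 of the 10 genes. Without it 5 genes were higher and 5 lower, with a median of -0.05. That library also had the highest sum of fibroblast markers (1589 RPM, against 602 to 945 RPM in the wild type) and the highest Plagl1 level (275 RPM); its skeletal muscle markers, at 476 RPM, were within the range of the wild type. Its sums were below the wild type range for the fast partners (83.7 RPM, against 139 to 230 RPM), the slow partners (129 RPM, against 163 to 228 RPM) and the embryonic and cardiac partners (298 RPM, against 373 to 630.03 RPM), and above it for endothelial markers (109 RPM, against 52.7 to 68.7 RPM). The part of its tissue makeup in the low values was not tested. None of the 10 genes was called (adjusted p 0.992 for each, 0.820 to 0.99999 over the alternatives), as for 0% of all genes, 1 of 10 had an unadjusted p under 0.05 (Tnnt2, at -0.59), beside 3.25% of all genes, and voom called 0. Groups overlapped for all 10, while 10.1% of all genes had groups that did not.

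At P20 the 9 genes tested differed by -0.08 (Tpm1) to 0.14 (Tpm2), 4 higher and 5 lower, and 9 of 9 were above 0 relative to the muscle markers. Tnni2 was at 288, 364 and 426 RPM in the biallelic and at 471, 357 and 277 RPM in the wild type libraries, and Tnnt3 at 754, 962 and 1164 RPM against 1206, 999 and 778 RPM, so the libraries of each genotype covered the same range. Tnnc1 was too low to be tested, at 0.0350, 0.124 and 0.170 RPM (2, 7 and 9 reads) against 0.0654, 0.103 and 0.132 RPM. None was called by limma or voom, and none had an unadjusted p under 0.05; of all genes 0% were called by limma and 2.25% had such a p. No gene of the 10 had groups without overlap, beside 6.89% of all genes. The intervals are wide: for Tnni1 the difference of 0.08 had a 95% interval of -0.80 to 0.96.

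Whether the genotype difference itself changed between stages was tested in 1 fit of the 18 libraries. The largest value was that of Tnnt2, whose difference was 1.06 higher at P0 than at E13.5 (SE 0.42, adjusted p = 0.839), the only one of the 10 with an unadjusted p under 0.05, beside 5.61% of all genes. For P20 against P0 and for P20 against E13.5 there was none, beside 1.35% and 4.18% of all genes. In each of these 3 contrasts 0 of the 10 genes and 0% of all genes were called, by limma, and 0 of the 10 by voom. Averaged over the 3 stages, 9 of the genes had a lower biallelic mean and 1 a higher one, with differences from -0.30 to 0.10, and 0 were called where 0.022% of all genes were.

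In the chondrocytes the troponins were at a few RPM or less, and Tpm3 and Tpm4 had the highest levels of these families. Tnni1 had 0 to 3 reads in the wild type and 0 to 9 in the biallelic animals, Tnnt2 had 0 to 7 and 0 to 2, and neither was tested. Tnnt3 was at 0.340 to 4.63 RPM in the wild type and 1.18 to 6.51 RPM in the biallelic animals, and Tnni2 at 0.340 to 5.99 RPM and 0.918 to 2.77 RPM. Tnnt1 did not exceed 5.87 RPM, Tnnc2 5.26 RPM or Tnnc1 1.59 RPM in any animal. Tpm3, in contrast, was at 241 to 297 RPM in the wild type and 243 to 327 RPM in the biallelic animals, and Tpm4 at 279 to 565 RPM and 351 to 540 RPM. Tpm1 was at 18.4 to 61.1 RPM and 25.3 to 44.6 RPM. In the order per kilobase Tpm4 led at 195 ± 53.2 (SD, n = 5), followed by Tpm3 at 79.8 ± 7.18 and Tpm1 at 8.95 ± 3.79. The copy Tpm3-rs7 was at 21.4 to 32.3 RPM here. Tongue and chondrocyte tables were normalized separately and made with different library methods and aligners, so levels are set side by side with no test.

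**Figure D5:**
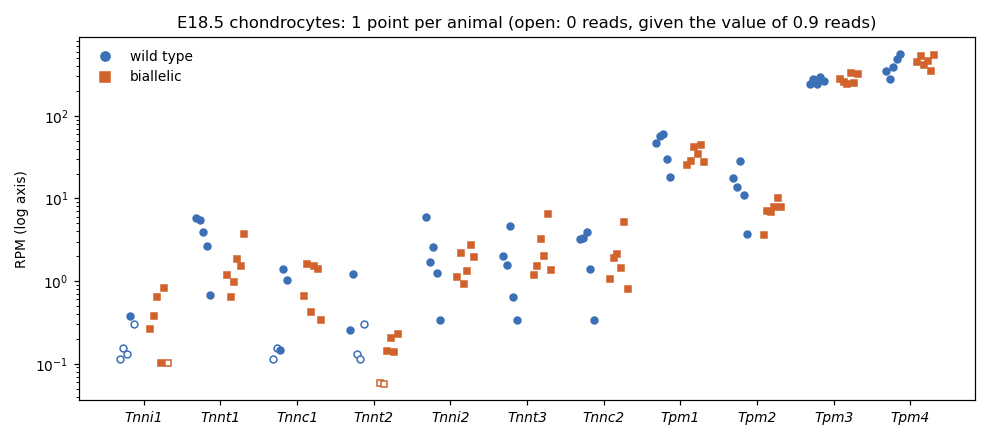
Level of each gene (RPM, log axis) in the 11 chondrocyte animals by genotype, 1 point for each animal and open points for animals with 0 reads. Tpm3 and Tpm4 lie above 200 RPM in all animals, Tpm1 and Tpm2 below them, and the troponins at 7 RPM or less.

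Between the genotypes 0 of the 8 genes tested in the chondrocytes were called by limma or voom (adjusted p 0.455 to 0.980), and 0 had an unadjusted p under 0.05; of all genes 0% were called by limma and 11.7% had such a p. No gene of the 10 had groups without overlap, beside 0.872% of all genes. Tpm2 was at 3.74 to 28.1 RPM in the wild type and at 3.601 to 10.2 RPM in the biallelic animals, with a difference of -0.83 (SE 0.45). Without the wild type animals CC7, CC8 and CC9, left out after the data were seen, that difference was 0.11. The values farthest from 0 were those of Tnnc1, at 1.34 (95% interval -0.65 to 3.33), and Tnnt1, at -1.08 (-2.46 to 0.31), which were -0.53 and 0.064 without those 3 animals. Tpm3 differed by 0.07 (95% interval -0.23 to 0.37), the narrowest interval of the 8. For 4 biallelic animals 2 libraries are labelled and 1 column is given, so how libraries were combined and the genotype cannot be told apart.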

How the data were processed

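The authors deposited log2 RPM values, 1 table for each tongue stage and 1 for the chondrocytes, in which each library is scaled by its own reads and a gene without reads stands at 0.9 reads, as the values show. Below 1000 reads, 100% of values were whole reads within 0.05. The submitters' processing notes name GRCm38, Trim Galore 0.4.2, TopHat2 2.1.0 for tongues and HISAT2 for chondrocytes. The sources used here do not give how reads were counted or whether by strand, and reads of a gene and of one overlapping it may be mixed.

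Genes at 1 RPM or more in 3 of 6 libraries (5 of 11 animals in the chondrocytes, 3 of 18 libraries between stages) were tested on log2 RPM with limma 3.58.1 in R 4.3.3, with a mean-variance trend and Benjamini-Hochberg adjustment at 0.05. Genotypes were compared within a table and stages in 1 fit of 18 libraries. The fit was tested on simulated counts in which all genes had the same spread. That spread was smaller than in some groups here, such as Tnni1 in the E13.5 biallelic tongues (SD of log2 RPM 1.11). The changes put in were larger than any genotype difference of these genes in the tongue. The simulation therefore does not show how often differences of that size would be found. Exon length was the union of exons of protein-coding transcripts. P-values measure only the spread between these libraries.

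Alternatives were 1 RPM added, no filter, a filter at 5 RPM, voom on whole reads, median or muscle marker centring, no trend, the replicate block, and each library left out. The members and lists were chosen with earlier results of these data known. Named are all 10 genes, Plagl1, the 2 genes of smallest p of each list described, the genes next to a troponin pair, and the 5 genes most like the slow and fast means; Tpm3-rs7 and Tpm4 were added. The main fits did not pair libraries by replicate number. Of 9 same-numbered correlations 2 were over 0.1 (-0.56 to 0.25), which cannot show whether the tissues were paired.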

Additional observations from a re-analysis of the deposited data

How the results depend on the processing

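The number of the 10 genes called was within 1.5 times its value in 276 of 276 alternatives. In every comparison that involves genotype this number was 0 and stayed 0, so most of these alternatives set 0 beside 0. The number also takes no account of direction. From E13.5 to P0 in the wild type 9 were called in the main fit. Relative to the muscle markers 1 was called higher and 8 lower, with the changes of sign given below. For the isoform ratios 188 alternatives moved by less than the spread between replicates and 8 moved by more. Leaving out 1 of 3 libraries cannot move a difference of group means by more than that spread. Most of the 188 could therefore not fail, and only the alternative with 1 RPM added could. It was tried for 28 ratio differences, and all 8 came from it, as it pulls low values together. Tnni1 over Tnni2 was then at -4.64 from P0 to P20 in the wild type, and at -5.81 and -5.26 for the 2 steps in the biallelic tongues. Tnnt1 over Tnnt3 was at -2.74 (wild type) and -3.15 (biallelic) from P0 to P20. Tnnc1 over Tnnc2 was at -2.56 from P0 to P20 in the wild type, and at -6.72 and -3.11 for the 2 steps in the biallelic tongues.

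Relative to the muscle markers, chosen after the data were seen, signs changed from E13.5 to P0 for Tnni2 (-0.26), Tnnt2 (-4.13), Tnnc2 (-0.58), Tpm1 (-2.93) and Tpm2 (-2.40), and from P0 to P20 for Tnnc2 (0.16). Between genotypes they changed at P0 for Tpm3 (0.0074) and at P20 for Tnni2 (0.065), Tnnt1 (0.056), Tnnt2 (0.053), Tnnt3 (0.036) and Tpm1 (0.0097). With voom Tnnt2 at P20 was at 0.00065. In the chondrocytes median centring gave 0.18 for Tnni2 and 0.15 for Tnnc2. Without CC7, CC8 and CC9 Tnni2 was at 1.27, Tnnt1 at 0.064, Tnnc1 at -0.53, Tnnc2 at 1.31, Tpm1 at 0.48, Tpm2 at 0.11 and Tpm3 at -0.0092.

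Leaving out 1 library, the genotype difference at E13.5 ranged from -0.73 to 0.33 for Tnni1, -1.16 to 0.062 for Tnni2, -0.64 to 0.18 for Tnnt3, -0.82 to 0.090 for Tnnc1 and -0.23 to 0.012 for Tpm3. At P20 it ranged from -0.17 to 0.47 for Tnni1, -0.21 to 0.17 for Tnni2, -0.35 to 0.23 for Tnnt1, -0.25 to 0.30 for Tnnt2, -0.22 to 0.11 for Tnnt3, -0.14 to 0.17 for Tnnc2, -0.23 to 0.088 for Tpm1, -0.0033 to 0.30 for Tpm2 and -0.089 to 0.063 for Tpm3. In the chondrocytes it ranged from -0.61 to 0.42 for Tnni2 and -0.68 to 0.20 for Tnnc2. From P0 to P20 Tnnc2 ranged from -0.18 to 0.12. The cause of these changes was not tested.

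With the replicate block 60 of 60 results kept their side of the threshold, with 0 of the 10 genes called between genotypes in each tongue table. Every tongue group holds each replicate number, so the block cannot change a log2 difference or its direction, only its error. Depth limits Tnnc1 and Tnni1 at P20 and the troponins in the chondrocytes, where 3 reads or fewer are common.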
